A study of Rattus norvegicus with 16 samples.

Results

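The genes described are the cytokine and chemokine receptors of the rat hippocampus, followed across Naïve, Sham-injured, injured and injured plus drug-treated rats. They were chosen by name alone, as every gene on the array whose symbol starts with Il, a number and r, or reads as a numbered Ccr, Cxcr (1 to 7), Tnfrsf, Ifnar or Ifngr gene. This rule took 72 of the 26583 genes on the array, through 83 of its 30367 gene probes. Where a gene had several probes, the probe with the highest mean signal over the arrays stood for it. One of the 72, Il1rn, is caught by its name although it encodes a secreted antagonist of the interleukin-1 receptor rather than a receptor. The symbols are those of the array design, and RefSeq now lists Cxcr7 as Ackr3, Il8ra as Cxcr1, Il8rb as Cxcr2, Il28ra as Ifnlr1, Il4ra as Il4r and Il6ra as Il6r.

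RNA from the hippocampus of adult male Sprague-Dawley rats was hybridised to 16 one-colour arrays, 1 rat to an array, with tissue taken 24 h after injury. The 3 Naïve rats had neither injury nor treatment, the 2 Sham rats were anesthetized and prepared without being injured, and the 3 TBI rats received a severe fluid percussion injury. Injured rats further received PMI-006 (TBI+PMI-006, 250 mg/kg by oral gavage, 3 rats), JM6 (TBI+JM6, 400 mg/kg by oral gavage, 3 rats) or estradiol (TBI+E2, 33 ug/kg, 2 rats, labelled E33). The labels give the estradiol route as subcutaneous and the methods as intraperitoneal, and whether the TBI rats had a vehicle is not given in the sources used here. Only Sham rats share the preparation of the injured rats.

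Cytokine receptors carry signals from secreted proteins to the inside of a cell. Type I and type II receptors pair a ligand-binding chain with a shared chain, such as the common gamma chain Il2rg, and signal through JAK kinases and STAT factors. Receptors of the interleukin-1 family signal through MyD88 to NF-kB, and the family holds its own brakes, the decoy receptor Il1r2 and the antagonist Il1rn. Receptors of the TNF superfamily recruit TRAF proteins or, where they carry a death domain, the machinery of apoptosis, whereas chemokine receptors couple to G proteins and direct leukocyte migration. In the brain they are found on microglia, astrocytes, neurons and vessels as well as on leukocytes that enter after injury. In a sample of whole tissue, fewer cells of a type and less RNA per cell cannot be told apart, and the same holds for more.

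Levels are given for each array as a percentage of that array's 75th percentile, the value that 75% of its probes well above background lie below. Because probes differ in brightness, a level is compared only between arrays for the same gene, never between genes. The arrays fell into 2 scanning sessions of 2 slides each. The first held all Naïve, Sham and TBI arrays, with 4 of them (Naïve 1 and 2, Sham 1 and 2) on one slide and Naïve 3 and TBI 1, 2 and 3 on the other, and the second held all drug-treated arrays, with PMI-006 1, 2 and 3 and JM6 1 on one slide and JM6 2 and 3 and both E2 arrays on the other. Probes well above background numbered 16282 to 18245 on the arrays of the first session and 20259 to 24984 on those of the second. Defining markers of the tissue were well above background throughout, with 9 of 9 microglial and 6 of 6 astrocyte markers on every array and 4 or 5 of 5 hippocampal neuron markers. Choroid plexus markers varied between arrays of 1 group, their summed level running from 236% to 7684% in Naïve, from 493% to 12135% in Sham and from 22.2% to 358% in TBI rats, and their part in the results below was not tested.

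Of the 72 members, 21 were well above background on all 16 arrays and 10 on none (Ccr3, Ccr8, Ccr10, Cxcr5, Il1rl2, Il9r, Il12rb2, Il18r1, Tnfrsf14 and Tnfrsf17). The 21 included Cxcr4, Cxcr7, Il8ra, Ifnar1, Ifngr1, Ifngr2, Il1rap, Il2rg, Il3ra, Il4ra, Il6ra, Il10rb, Il11ra1, Il13ra1, Tnfrsf1a, Tnfrsf1b, Tnfrsf11b, Tnfrsf12a, Tnfrsf21 and Tnfrsf25. A member was tested where all arrays of some group had it well above background, which left 50 tested and 22 not tested. The 22 comprise those 10 and 12 that rose above background on at least 1 array, among them Ccr7, the lymph node homing receptor, on 2 arrays and Ccr9 on 6. Of the 50 tested, 29 qualified through a Naïve, Sham or TBI group and 21 through a drug-treated group alone, so the latter 21 could enter only by being bright in the second session. The lower number of receptors above background in the first session held for each array.

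**Figure D1:**
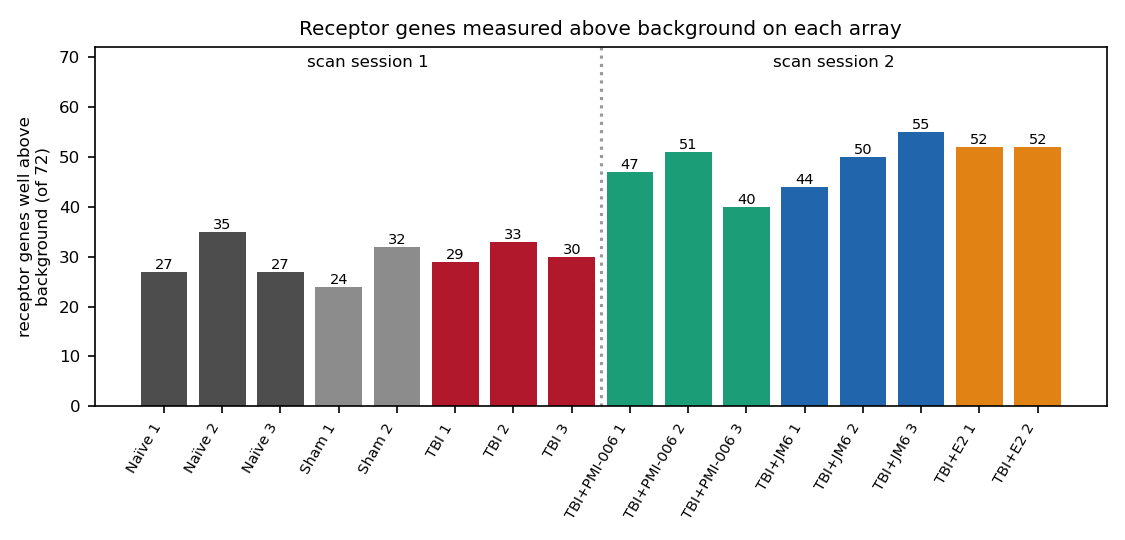
Number of the 72 receptor genes well above background on each of the 16 arrays (vertical axis, genes; horizontal axis, arrays by group and replicate). The 8 arrays of Naïve, Sham and TBI rats have 24 to 35 genes above background and the 8 arrays of drug-treated rats, all scanned in the second session, have 40 to 55.

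The comparison of TBI with Sham asks what the injury added to the surgery. The 5 members Il1rn, Tnfrsf12a, Tnfrsf26, Tnfrsf1a and Il2rg, rose and 0 fell among the 50 tested at an adjusted p under 0.05 in limma. Over all 22799 probes tested in that comparison, 2.93% were called higher and 6.49% lower, so the members were called higher more often than probes at large and lower less often, a difference that was not tested. The median log2 difference was 0.55 over the 50 members and -0.03 over all probes. Among the 21 members above background on every array, which did not depend on any one group to be tested, the median was 0.48 against -0.10 for all such probes, and 3 were called higher (2.61% of such probes were). Individual arrays did not overlap between the groups for 20 members, 18 higher and 2 lower in TBI, where 17.7% of all probes were higher and 24.3% lower without overlap.

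The receptor system of interleukin-1 held the largest fitted difference among the 5 called members. Il1rn lay at 0.637% and 1.6% in Sham rats and at 3.03%, 16.7% and 13% in TBI rats. Both Sham arrays were below all TBI arrays, and TBI 1 was the lowest of its group. The fitted difference was 3.11 on the log2 scale (SE 0.77, adjusted p = 0.0287). Il1rn was well above background on 1 of the 2 Sham arrays, 1 of the 3 Naïve arrays and all TBI arrays, so its difference from either group rests in part on signal near background. Il1r2, the decoy receptor that binds interleukin-1 without signalling, was not well above background on either Sham array (0.982% and 0.748%) and lay at 2.62%, 10.9% and 8.26% in TBI rats, and its difference of 2.85 did not pass the test (SE 0.995, adjusted p = 0.09). The signalling receptor Il1r1 was not well above background on any Naïve, Sham or TBI array. Il1rap, the chain that Il1r1 needs to signal, was above background on every array, with 26.1% and 22.5% in Sham rats, 27.1%, 14.2% and 17.9% in TBI rats and a difference of -0.35 (SE 0.32, adjusted p = 0.530). Thus the antagonist of the system passed the test, and the signalling chains gave no call.

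In the TNF receptor superfamily, 3 of the 12 tested members rose, 1 with a death domain, 1 decoy or soluble and 1 TRAF binding. Tnfrsf12a, the receptor of the cytokine TWEAK (also known as Fn14), lay at 10.4% and 14% in Sham rats and at 35.9%, 118% and 65.5% in TBI rats, 5.42-fold higher (log2 2.44, SE 0.64, adjusted p = 0.0351). Every TBI array was above both Sham arrays by more than the Sham arrays differed from each other. Tnfrsf1a, the death domain receptor through which TNF acts on most cells, lay at 8.13% and 13.2% in Sham rats and at 23.8%, 32.6% and 30.2% in TBI rats. The 3 TBI arrays were close together. Tnfrsf1a had the lowest adjusted p of the members in limma (2.76-fold, log2 1.47, SE 0.28, adjusted p = 0.0123). The SE rests on the spread within all groups of the fit, not on that of the TBI arrays alone. Tnfrsf26, encoded in the gene cluster of the TRAIL decoy receptors, lay at 1.30% and 1.56% in Sham rats and at 2.94%, 8.22% and 4.81% in TBI rats (log2 1.78, SE 0.47, adjusted p = 0.0341). It was well above background on 1 of the 2 Sham arrays and on all TBI arrays. Tnfrsf11b, the soluble decoy osteoprotegerin, had a difference of -0.09 (adjusted p = 0.925) and Tnfrsf21, the death receptor DR6, of -0.47 (adjusted p = 0.173).

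Il2rg, the chain shared by the receptors of interleukins 2, 4, 7, 9, 15 and 21, was the 1 member called of the 6 tested in its family. It lay at 5.14% and 10.6% in Sham rats and at 11.8%, 25.8% and 27.2% in TBI rats (2.74-fold higher, log2 1.46, SE 0.39, adjusted p = 0.0376). TBI 1 was only just above Sham 2, and TBI 2 and TBI 3 were above both. Of its partner chains, Il4ra had a difference of 1.03 by its brighter probe (SE 0.41, adjusted p = 0.129). The dimmer Il4ra probe went the other way, at -0.44 (adjusted p = 0.581). The probes that stood for Il7r and Il2rb were not well above background on any TBI array (a dimmer Il7r probe was on 1).

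The probes of these called genes lie, in the rn4 build of the array files, at chr3:2613130-2613189 for Il1rn, chr10:12940627-12940686 for Tnfrsf12a, chr4:162185192-162185251 for Tnfrsf1a, chr1:203984089-203984148 for Tnfrsf26 and chrX:89342063-89342122 for Il2rg. The rn4 annotation was not used here, so the exon each probe reads is not given. Promoters are shown for the 4 genes that rose against both Sham and Naïve rats, because they moved together. They are the 250 bases before each start site in the RefSeq GRCr8 assembly, at chr3:27520072-27520321 on the plus strand for Il1rn, chrX:70439001-70439250 on the minus strand for Il2rg, chr10:13213649-13213898 on the minus strand for Tnfrsf12a and chr4:159836869-159837118 on the plus strand for Tnfrsf1a. Capitals mark the only match found.
Il1rn: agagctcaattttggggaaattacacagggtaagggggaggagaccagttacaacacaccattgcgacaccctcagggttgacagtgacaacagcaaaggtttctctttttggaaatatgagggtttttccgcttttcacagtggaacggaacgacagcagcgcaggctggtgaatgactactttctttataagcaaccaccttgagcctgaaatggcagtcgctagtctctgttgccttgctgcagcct
Il2rg: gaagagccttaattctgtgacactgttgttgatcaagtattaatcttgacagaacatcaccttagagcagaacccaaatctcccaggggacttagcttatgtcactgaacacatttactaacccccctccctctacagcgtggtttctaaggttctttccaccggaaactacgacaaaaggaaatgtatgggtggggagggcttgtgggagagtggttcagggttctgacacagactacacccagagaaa
Tnfrsf12a: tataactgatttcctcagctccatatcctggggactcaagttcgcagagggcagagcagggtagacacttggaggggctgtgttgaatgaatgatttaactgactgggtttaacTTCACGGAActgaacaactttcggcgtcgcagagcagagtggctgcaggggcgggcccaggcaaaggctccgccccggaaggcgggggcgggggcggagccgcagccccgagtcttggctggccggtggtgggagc
Tnfrsf1a: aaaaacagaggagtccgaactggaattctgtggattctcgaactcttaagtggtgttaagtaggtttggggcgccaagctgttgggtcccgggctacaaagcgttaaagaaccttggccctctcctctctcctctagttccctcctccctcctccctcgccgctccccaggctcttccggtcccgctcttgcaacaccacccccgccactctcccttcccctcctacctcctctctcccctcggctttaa
These windows were searched on both strands for the AP-1 motif TGANTCA, the STAT motif TTCNNNGAA and the NF-kB motif, and no match overlapped another. Tnfrsf12a held a STAT match starting 136 bases before its start, and the other 3 held no match to any of them. Of all 33469 rat promoters of this length, 6.34% held the AP-1 motif, 7.67% the STAT motif and 3.54% the NF-kB motif. Of the 52 members with a promoter in the table, 5 held AP-1, 4 STAT and 7 NF-kB.

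Receptors of the chemokines gave no call against Sham rats, among 4 CC and 6 CXC receptors tested. Ccr1, a receptor for CCL3 and CCL5 on monocytes and neutrophils, was not well above background on any Naïve or Sham array and lay at 0.424%, 4.64% and 2.69% in TBI rats, the first of these not above background. Its difference of 2.24 carried an SE of 0.82 (adjusted p = 0.102), with TBI 1 inside the range of the Sham arrays. Il8ra, the neutrophil receptor CXCR1, lay at 14.4% and 5.93% in Sham rats and at 48.3%, 7.05% and 17.0% in TBI rats. Here TBI 1 was the highest and TBI 2 overlapped the Sham arrays (difference 0.96, SE 1.01, adjusted p = 0.583). Cxcr4, the CXCL12 receptor, lay at 11.8% and 19.2% in Sham rats and at 12.9%, 26.7% and 27.2% in TBI rats, overlapping (0.48, SE 0.41, adjusted p = 0.483).

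The receptors for interferon and for the interleukin-6, 10, 12 and 17 families gave no call against Sham rats either. Ifngr1 and Ifngr2, the chains of the interferon gamma receptor, differed by 0.05 (SE 0.19, adjusted p = 0.900) and 0.21 (SE 0.22, adjusted p = 0.580). Ifngr1 ran from 86.4% to 124% over the 8 Naïve, Sham and TBI arrays, with its groups overlapping. Il6ra, the interleukin-6 binding chain, lay at 8.95% and 7.63% in Sham rats and at 11.4%, 13.4% and 12.6% in TBI rats, without overlap and short of the threshold (0.59, SE 0.22, adjusted p = 0.101). Il11ra1, the interleukin-11 binding chain, was lower without overlap, at 93.2% and 116% in Sham rats and 64.9%, 71.6% and 77.7% in TBI rats (-0.55, SE 0.22, adjusted p = 0.129).

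The comparison rests on 2 Sham arrays that shared no slide with the TBI arrays, and leaving out an array left 1 call without Sham 1 (Cxcr3, lower), 3 without Sham 2 (Tnfrsf1a, Il2rg and Cxcr3, all higher), 1 without TBI 2 or TBI 3 (Tnfrsf1a) and 9 without TBI 1. Cxcr3 was thus called in opposite directions depending on the Sham array kept, and a lone Sham array is assumed to vary like the other groups. With the 5 arrays of these groups fitted alone, or with slide as a fixed term, limma called 0 members, against 18 members at an unadjusted p under 0.05 in the fit to all arrays (26% of all probes) and 7 by the methods' t-test before adjustment (13.5% of all probes; 0 members after it).

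**Figure D2:**
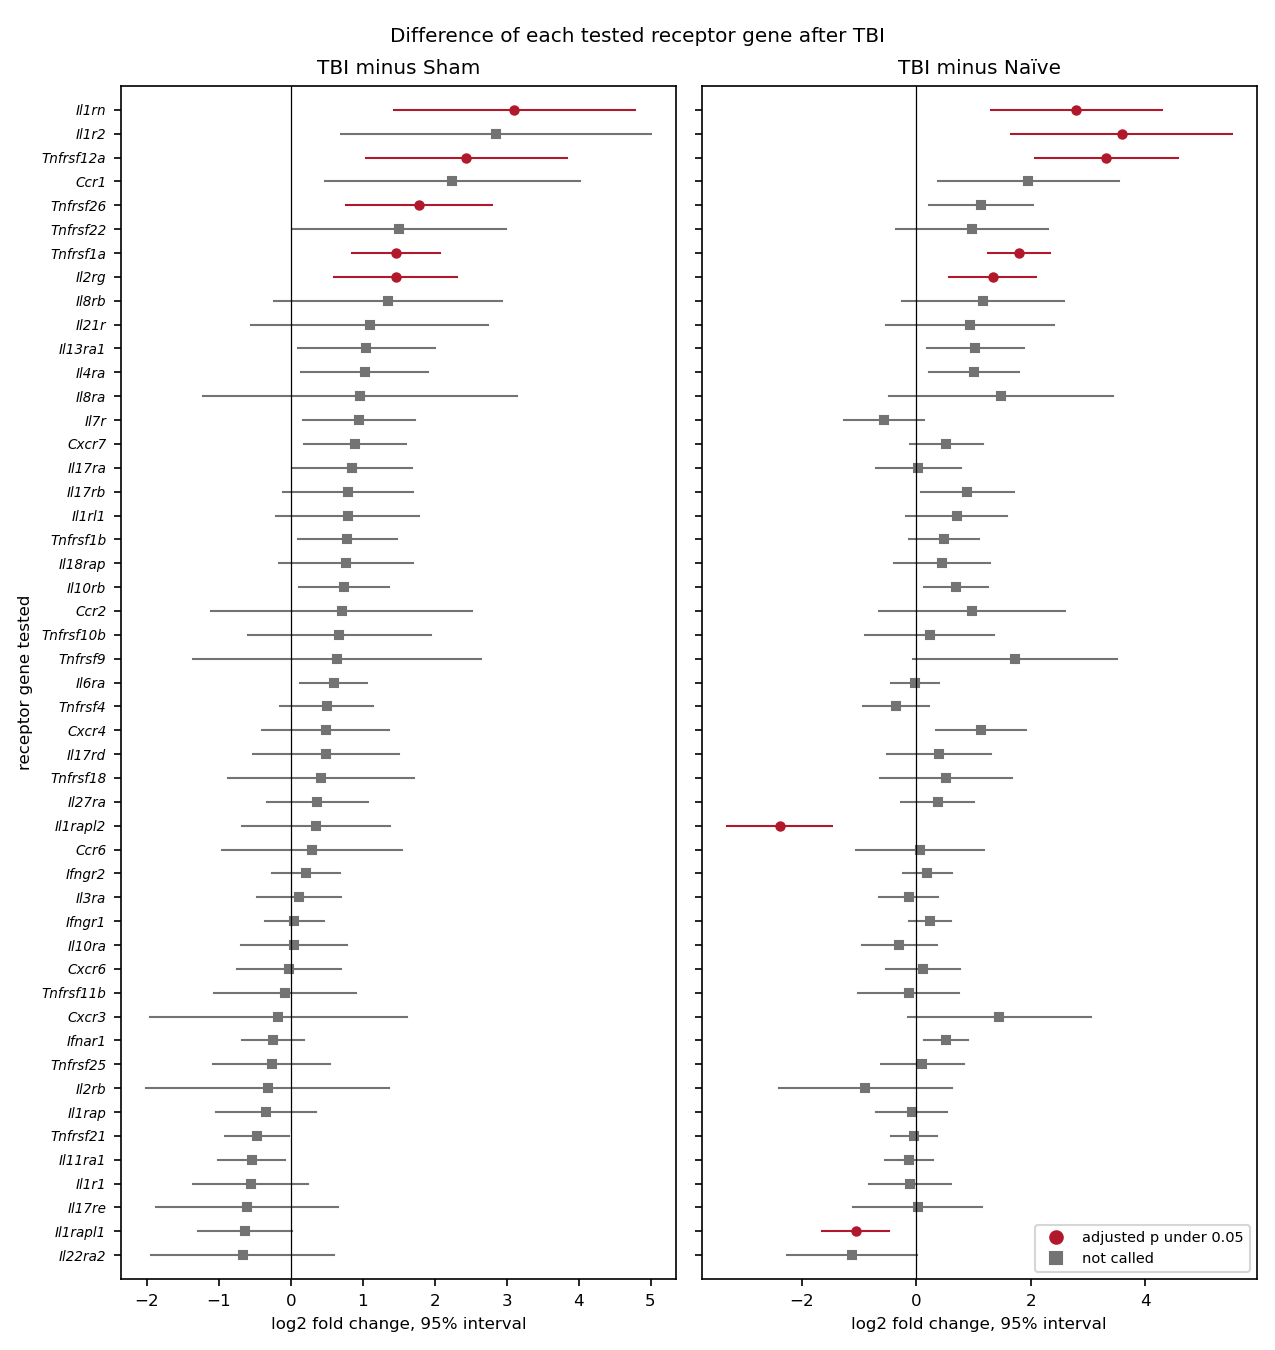
Log2 fold change of 49 tested receptor genes with 95% confidence intervals, TBI minus Sham and TBI minus Naïve (horizontal axis, log2; vertical axis, genes), from limma over 16 arrays. Red circles mark genes with an adjusted p under 0.05, which are 5 in the first comparison, all higher in TBI, and 7 in the second, 5 higher and 2 lower.

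Against Naïve rats, which had no surgery, 6 members rose (among them Il1r2, Tnfrsf12a, Il1rn, Tnfrsf1a and Il2rg) and 2 fell (Il1rapl1 and Il1rapl2) of the 50 tested. Of 22809 probes tested, 2.98% were called higher and 1.73% lower. The median difference of the members was 0.47, against 0.04 over all probes. For the 21 members above background on every array it was 0.52 against 0.01, and 4 of the 21 were called higher (2.78% of such probes were). The arrays did not overlap for 16 members that were higher and 2 that were lower (12.8% and 10.6% of all probes). The TBI arrays are the same in this comparison and in that with Sham rats, so the values of both are given side by side and are no separate evidence of each other.

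Tnfrsf12a had the largest fold of the members measured above background in both groups, with 4.82%, 11% and 5.23% in Naïve rats against 35.9%, 118% and 65.5% in TBI rats (log2 3.32, SE 0.58, adjusted p = 0.0104). Tnfrsf1a lay at 8.18%, 10.7% and 6.38% in Naïve rats and was 3.48-fold higher in TBI rats (log2 1.80, SE 0.25, adjusted p = 0.00438). These were the genes whose call against Naïve rats outlasted the loss of any 1 array. Il1rn lay at 0.619%, 2.05% and 1.53% in Naïve rats (log2 2.80, SE 0.69, adjusted p = 0.0385). Il2rg lay at 6.64%, 9.91% and 7.74% (2.53-fold, log2 1.34, SE 0.35, adjusted p = 0.0481). Il2rg was close to the threshold, and quantile normalization ended its call and that of Il1rapl1. Tnfrsf26, called against Sham rats, had a difference of 1.14 from Naïve rats (SE 0.42, adjusted p = 0.14).

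Il1r2 was not well above background on any Naïve array (0.329%, 1.16% and 0.357%) and was above on all 3 TBI arrays, so only a lower bound of its fold can be given. Setting each Naïve array at the higher of its own value and the lowest signal well above background, Il1r2 was at least 4.09-fold higher in TBI rats (fitted log2 3.59, SE 0.89, adjusted p = 0.0387). Its probe spans chr9:39316654-39319494 in rn4.

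The members that fell, Il1rapl1 and Il1rapl2, are accessory-like proteins of the interleukin-1 receptor family found on neurons, where Il1rapl1 takes part in synapse formation. Il1rapl1 (probe at chrX:73692440-73692499) lay at 4.29%, 3.87% and 5.97% in Naïve rats, at 2.91% and 4.13% in Sham rats and at 3.13%, 1.71% and 2.04% in TBI rats. It was lower in TBI than in Naïve rats (log2 -1.06, SE 0.27, adjusted p = 0.0436) and overlapped between TBI and Sham rats (-0.64, SE 0.30, adjusted p = 0.200). Of the TBI arrays 1 had Il1rapl1 well above background. Il1rapl2 (probe at chrX:126352450-126352509) lay at 13.2%, 6.93% and 11.4% in Naïve rats, at 1.46% and 1.58% in Sham rats and at 1.99%, 2.76% and 1.33% in TBI rats. Of these groups only Naïve rats were high. Il1rapl2 was well above background on 2 of the 3 TBI arrays and on neither Sham array, and was lower in TBI than in Naïve rats (log2 -2.39, SE 0.43, adjusted p = 0.0117), with a TBI minus Sham difference of 0.35 (SE 0.48, adjusted p = 0.681). Summed neuron markers ran from 1933% to 2122% in Naïve, 2633% to 2767% in Sham and 1364% to 2138% in TBI rats, and their part in these differences was not tested.

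**Figure D3:**
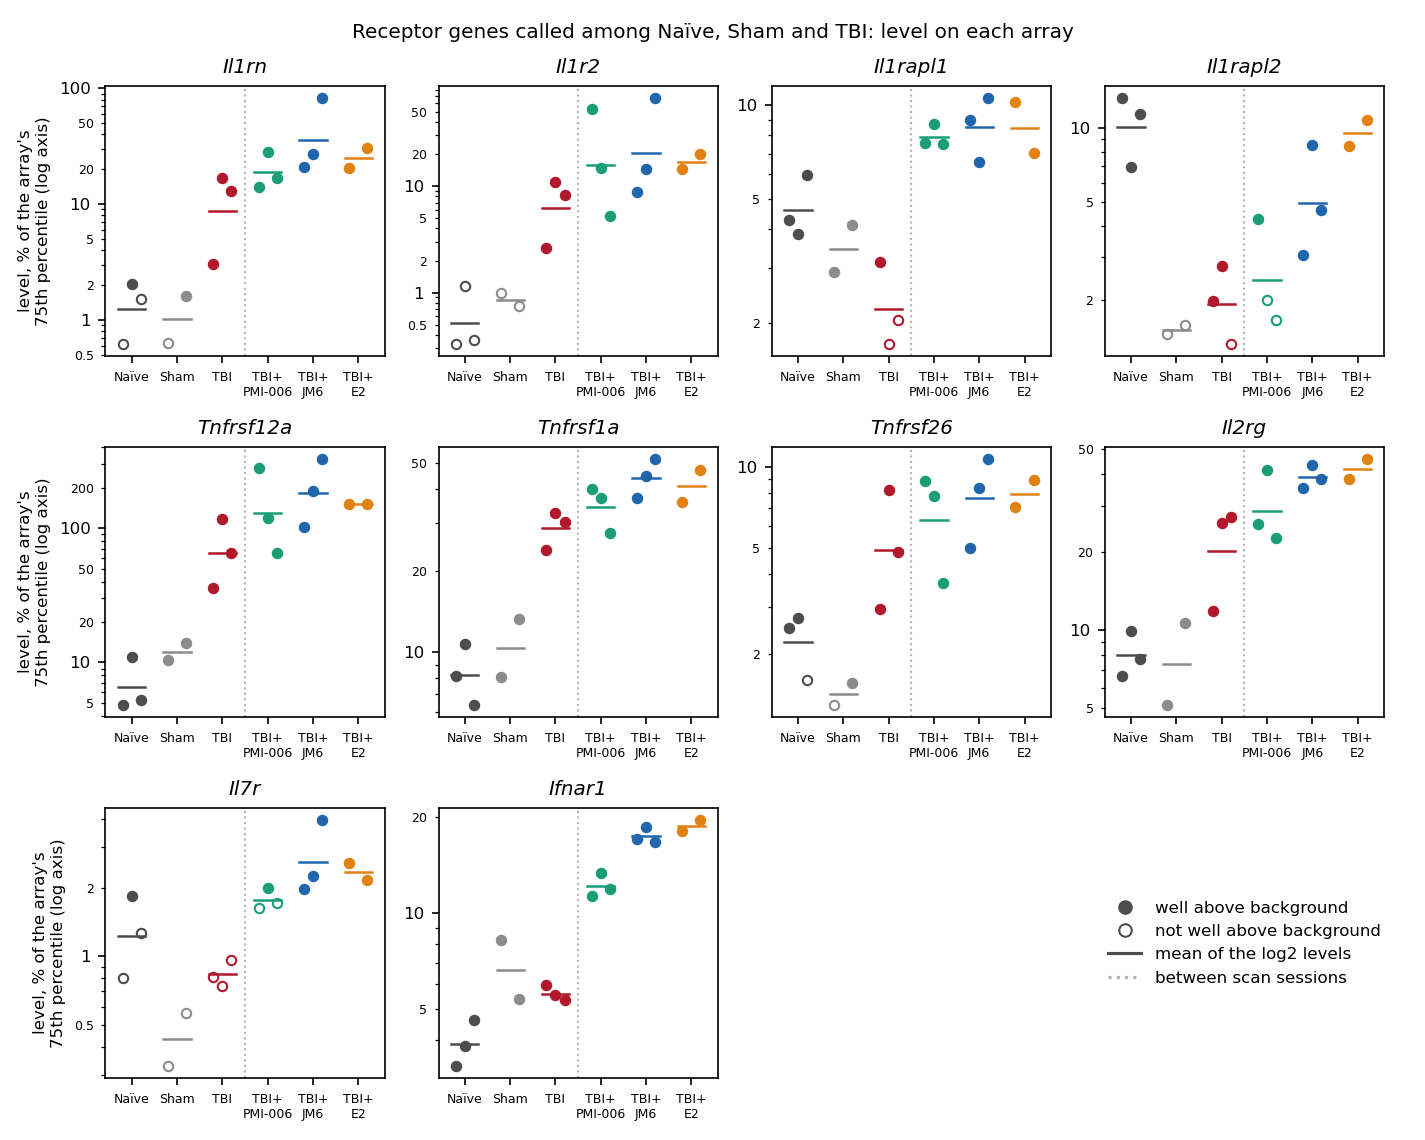
Level on every array of 10 receptor genes called in at least 1 comparison among Naïve, Sham and TBI rats (vertical axis, percent of the array's 75th percentile, log scale; horizontal axis, groups). Points are arrays, open where not well above background, short lines are means of the log2 values, and the dotted line separates the scanning sessions; the 3 TBI arrays of Tnfrsf1a (23.8% to 32.6%) lie above all Naïve and Sham arrays, whereas Il1rapl2 is high in Naïve rats (6.93% to 13.2%) and at or under 2.76% in Sham and TBI rats.

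Naïve 3 and the TBI arrays shared a slide, and within it TBI minus Naïve 3 was 2.51 for Il1rn, 4.11 for Il1r2, 3.64 for Tnfrsf12a, 2.17 for Tnfrsf1a, 1.39 for Il2rg, -1.43 for Il1rapl1 and -2.56 for Il1rapl2, each in the direction of the fit. The number of calls fell to 2 (Tnfrsf12a and Tnfrsf1a) without Naïve 1 or TBI 3, to 3 (with Il1rapl2) without Naïve 3 or TBI 2, and to 1 (Tnfrsf1a) with slide as a fixed term, and rose to 13 without TBI 1. With the 6 arrays fitted alone, limma called 0, against 16 members at an unadjusted p under 0.05 in the fit to all arrays (20.9% of all probes) and 10 by the methods' t-test before adjustment (13.9% of all probes; 0 members after it).

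Sham rats, compared with Naïve rats to show the effect of anesthesia and preparation, had 1 member higher and 2 lower. Of 22784 probes tested, 6.57% were called higher and 1.52% lower. The median difference was -0.04 over the members and 0.06 over all probes. Il1rapl2 was at least 6.67-fold lower in Sham rats, where it was not well above background (fitted log2 -2.74, SE 0.48, adjusted p = 0.00684), and within the slide that Naïve 1 and 2 shared with both Sham rats the difference was -2.65. Ifnar1, a chain of the type I interferon receptor, lay at 3.32%, 3.83% and 4.63% in Naïve rats and at 8.23% and 5.37% in Sham rats (1.71-fold higher, log2 0.77, SE 0.20, adjusted p = 0.0334). The Ifnar1 call was lost under 13 of 18 alternatives, and without Naïve 2 only Il1rapl2 was called. Il7r, the interleukin-7 receptor, by its brighter probe had a fitted difference of -1.51 (SE 0.36, adjusted p = 0.0239), but was well above background on 1 of 3 Naïve arrays and on neither Sham array (0.804%, 1.83% and 1.26% against 0.330% and 0.563%), so no fold is given. Under quantile normalization the calls were 0 higher and 3 lower, Il1rapl2, Il7r and Il6ra (log2 -0.73, adjusted p = 0.0445), where 2.47% of probes were called lower. The methods' t-test counted 1 member before adjustment, where it counted 16% of all probes, and 0 after.

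For some members the probes disagreed. The dimmer probe of Tnfrsf1b, the second TNF receptor, passed the test against Sham (log2 1.65, adjusted p = 0.0192) and Naïve rats (1.48, adjusted p = 0.0251), where the brighter probe gave 0.78 (adjusted p = 0.14) and 0.48 (adjusted p = 0.366). The second probe of Tnfrsf21 was lower in TBI than in Sham rats (-0.99, adjusted p = 0.0351) where the brighter gave -0.47, and was higher in Sham than in Naïve rats (1.15, adjusted p = 0.0203) where the brighter gave 0.43. Both are therefore uncertain. The second probe of Il13ra1 was called against Naïve rats (1.61, adjusted p = 0.0304) and the brighter was not (1.04, adjusted p = 0.153). The second was also higher in Sham than in Naïve rats (1.52, adjusted p = 0.0426), with a TBI minus Sham difference of 0.09. The brighter one lies on chromosome 11 of rn4 whereas RefSeq places the gene on chromosome X, so the gene read by that probe is uncertain. For Il3ra the second probe was higher in Sham than in Naïve rats (1.2, adjusted p = 0.0166) and the brighter gave -0.25 (adjusted p = 0.657).

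Among the ligands of these receptors, 6 of 38 tested were higher in TBI than in Sham rats and 0 lower. Over all probes 2.93% were called higher and 6.49% lower in this comparison. Whether the lists below differ from probes at large was not tested. The largest differences belonged to Ccl2 and Ccl7, monocyte chemokines that act on Ccr2 (log2 7.36, SE 0.98, and 7.0, SE 0.94, each with an adjusted p = 0.00507). Their receptor Ccr2 was well above background on 1 of the 8 arrays of the first session, TBI 3, at 2.07%. Of 21 tested cytokine receptors whose symbols fall outside the name rule, Osmr, the oncostatin M receptor, was higher (3.02, SE 0.77, adjusted p = 0.0311) and Cntfr, the ciliary neurotrophic factor receptor, lower (-1.13, SE 0.22, adjusted p = 0.0124). Of 16 tested adaptors and kinases, Fadd, which couples death domain receptors such as Tnfrsf1a to caspases, was higher (1.21, adjusted p = 0.0215), and the TNF receptor adaptors Traf2 (-0.87, adjusted p = 0.0246) and Traf3 (-0.73, adjusted p = 0.0356) were lower. Under quantile normalization Cntfr, Fadd, Traf2 and Traf3 were no longer called. Against Naïve rats 9 ligands, 2 of these further receptors and 2 adaptors were higher and 0 lower, where 2.98% of all probes were called higher and 1.73% lower.

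Markers of cell types were also called in TBI against Sham rats, where 2.93% of all probes were called higher and 6.49% lower. Monocyte and macrophage markers summed to 79.1% to 90.5% in Naïve, 106% to 155% in Sham and 144% to 627% in TBI rats, with 2 of 7 called higher in TBI than in Sham rats (Cd14, log2 3.09, adjusted p = 0.0155, and Cd68, 2.68, adjusted p = 0.0196). Neutrophil markers summed to 10.2% to 12.4%, 15.3% to 148% and 30.3% to 282% in these groups, with S100a8 and S100a9 called higher of 4 tested. Under quantile normalization 1 of the 4 was called higher against Sham rats. Against Naïve rats 2 were called higher and 1 lower in TBI, and 1 was called lower in Sham. The granule genes Mpo and Mmp8 were above background on no array. T cell markers ran from 6.59% to 7.83%, 20.1% to 26.6% and 14.1% to 32.3%, with 1 of 5 called and Cd3g, Cd2 and Cd5 above background on no array of the first session. Of 9 microglial markers, Itgam was higher (1.40, adjusted p = 0.0149), and P2ry12 (-1.41, adjusted p = 0.0130) and Tmem119 (-2.17, adjusted p = 0.00925) were lower, with sums of 1391% to 1934% in Sham and 1461% to 1673% in TBI rats. Markers of neurons (2 of 6), hippocampal neurons (1 of 5), oligodendrocytes (2 of 5) and endothelial cells (1 of 6) were called lower in TBI than in Sham rats, and of these lists only oligodendrocytes kept a count above 0 under quantile normalization (2 of 5). None of the astrocyte (6 tested), choroid plexus (5), NK cell (4), B cell (3) and red blood cell (3) markers was called. The part of these cell types in the receptor differences was not tested.

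Drug-treated rats were compared with each other within the second session, in 3 pairs at different doses. limma called 0 of 50 members in TBI+JM6 against TBI+PMI-006, where 0.0131% of probes were called, 0 in TBI+JM6 against TBI+E2 (0.0175%) and 0 in TBI+PMI-006 against TBI+E2 (0.11%). At an unadjusted p under 0.05 the members numbered 5, 2 and 7 (8.84%, 2.81% and 15% of all probes), and the methods' t-test counted 3, 2 and 7 before adjustment (6.81%, 2.71% and 15% of all probes) and 0 after. These comparisons cannot show that the drugs act alike. PMI-006 and E2 arrays shared no slide, so drug and slide cannot be told apart between them. The 95% interval of a member's log2 difference reached a median of 0.82, 0.91 and 0.89 to either side.

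The lowest adjusted p between drugs belonged to Il1rapl2 in TBI+PMI-006 against TBI+E2. Il1rapl2 lay at 4.27%, 2.0% and 1.67% with PMI-006, 3.06%, 8.51% and 4.66% with JM6, and 8.49% and 10.8% with E2. PMI-006 minus E2 was -1.98 (95% interval -3.01 to -0.95, adjusted p = 0.128). Within a slide, PMI-006 minus JM6 was -0.33 and JM6 minus E2 was -0.61. Ifnar1 was lower on every PMI-006 array (11.4% to 13.3%) than on the JM6 arrays (16.7% to 18.6%), with JM6 minus PMI-006 at 0.52 (95% interval 0.13 to 0.90, adjusted p = 0.426), and PMI-006 minus JM6 1 was -0.49 on the slide they shared. Tnfrsf9, the costimulatory receptor 4-1BB of activated T cells, reached 251% on JM6 2, against 11.7% and 46.4% on the other JM6 arrays, 11.7% to 14% with PMI-006 and 16.8% to 20.3% with E2. That single array carried most of its JM6 minus PMI-006 difference of 2.01 (SE 0.83, adjusted p = 0.513).

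Each drug group was also set against TBI, but these groups were on different slides and scanned in different sessions. Drug and session therefore cannot be told apart in any value of this comparison. Scaled to the 75th percentile as in the methods, 39 of 50 members were higher with JM6, 24 with PMI-006 and 31 with E2, and 0 were lower, where 69.9%, 56.7% and 70.2% of all probes were called higher. These counts include the 21 members that were tested only because a drug group had them above background, which favours a higher call against TBI. The median log2 difference over all probes was 0.99, 0.79 and 1.08. Of the 21 members above background on every array, 14, 6 and 8 were called higher, against 63.6%, 48.6% and 63% of such probes, and their medians of 0.62, 0.59 and 0.64 lay near the 0.70, 0.54 and 0.75 of those probes. Under quantile normalization, which gives all arrays one distribution, the calls came to 3 higher and 3 lower with JM6 (13.9% and 13.3% of all probes), 4 and 2 with PMI-006 (9.96% and 9.21%), and 3 and 3 with E2 (10.4% and 10%).

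**Figure D4:**
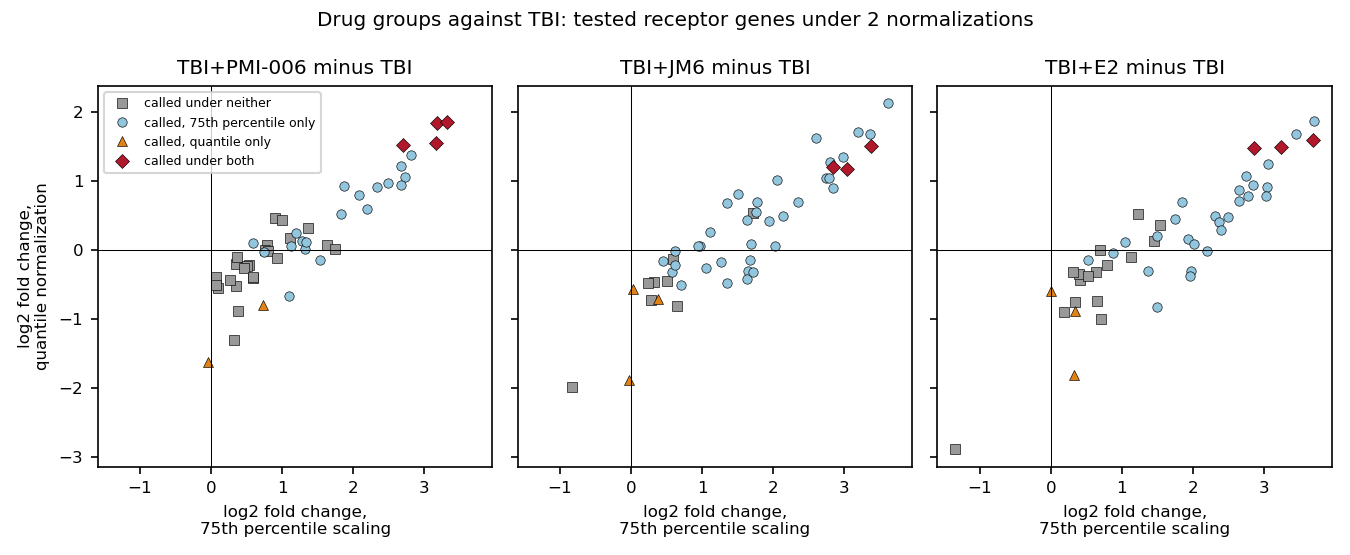
Log2 fold change of 49 tested receptor genes, each drug group minus TBI (1 panel per drug), scaled to the 75th percentile (horizontal axis) against quantile normalization (vertical axis). Over all 50 tested members the medians on the horizontal axis are 1.64 (JM6), 1.04 (PMI-006) and 1.51 (E2), and on the vertical axis 0.08, 0.04 and 0.12.

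Il1r1 and Il10ra, the interleukin-1 and interleukin-10 binding chains, were higher in all 3 drug groups than in TBI rats under both normalizations. Neither was called in any drug group with another background correction (normexp). Both are among the 21 members tested through a drug group alone, so these differences are given as a description. Il1r1 lay at 0.369%, 0.422% and 0.537% in TBI rats, not above background, at 5.69%, 4.64% and 2.26% with PMI-006, at 4.26%, 3.83% and 5.80% with JM6 and at 5.10% and 6.26% with E2. The arrays of TBI rats were all below those of every drug group. Il1r1 was at least 2.85-fold higher with JM6 (adjusted p = 6.49e-06), at least 2.44-fold with PMI-006 (adjusted p = 1.95e-05) and at least 3.53-fold with E2 (adjusted p = 1.02e-05). Its Naïve and Sham values, 0.415% to 0.887%, were as low as in TBI rats and came from the first session too. Il10ra lay at 1.54%, 0.932% and 1.2% in TBI rats and between 8.10% and 14.4% on the drug-treated arrays, at least 6.77-fold higher with PMI-006 (adjusted p = 1.25e-05) and at least 7.06-fold with E2 (adjusted p = 1.31e-05). These lower bounds hold under the methods' scaling only. Under quantile normalization the log2 differences were 1.51, 1.55 and 1.6 for Il1r1 and 1.2, 1.84 and 1.49 for Il10ra (JM6, PMI-006 and E2). Those of Il10ra with PMI-006 and E2, and that of Il1r1 with E2, are smaller than the bounds given.

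Other large differences from TBI rats under the methods' scaling were those of Ccr2, the CCL2 receptor of monocytes, Il2rb, the beta chain of the interleukin-2 receptor, Ccr1, Il17re, Il17rd and Tnfrsf18, the T cell receptor GITR. All 6 were likewise tested through a drug group alone, and the lower bounds given for them hold under the methods' scaling only. In TBI rats Ccr2 and Tnfrsf18 were well above background on 1 of 3 arrays, Ccr1 on 2 and the others on none. Ccr2 lay at 0.381%, 0.876% and 2.07% in TBI rats and at 12.1%, 6.40% and 16.6% with JM6 (log2 3.62, SE 0.75, adjusted p = 0.00105) and 14.9% and 6.23% with E2 (3.45, SE 0.84, adjusted p = 0.00308). Both lost the call under quantile normalization (2.12, adjusted p = 0.102, and 1.68, adjusted p = 0.258). Il2rb was at least 4.32-fold, 4.18-fold and 5.49-fold higher with JM6, PMI-006 and E2, and under quantile normalization kept the call with PMI-006 (1.86, adjusted p = 0.0454). Ccr1 was higher with JM6 (3.19, SE 0.73, adjusted p = 0.00212), Il17re at least 4.33-fold with JM6 and 3.51-fold with PMI-006, Il17rd at least 2.31-fold with E2 and Tnfrsf18 with PMI-006 (2.80, SE 0.53, adjusted p = 0.000898). Of these, Il17re with JM6 kept its call under quantile normalization (1.17, adjusted p = 0.0330). For these 6 genes, differences are given where they were among the 5 largest called of a drug group. They are not thereby particular to 1 drug. Of 4 IL-17 receptors tested, 3, 2 and 3 were called higher with JM6, PMI-006 and E2 (69.9%, 56.7% and 70.2% of all probes). Under quantile normalization Il17rd was called higher with PMI-006. Tnfrsf4, the costimulatory receptor OX40, stood apart, with 2.39% to 3.16% in TBI and 2.01% to 4.10% in drug-treated rats. It had no call under the methods' scaling. Under quantile normalization it was called lower in all 3 groups (-1.89 with JM6, -1.62 with PMI-006 and -1.81 with E2), so its call depends on the scaling.

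Il1rn, Tnfrsf12a, Tnfrsf1a, Tnfrsf26 and Il2rg, which rose in TBI rats against Sham rats, were not called lower in any drug group. Under the methods' scaling Il1rn (2.05, adjusted p = 0.0187), Tnfrsf12a (1.5, adjusted p = 0.0337), Tnfrsf1a (0.62, adjusted p = 0.0423) and Il2rg (0.94, adjusted p = 0.0299) were called higher with JM6, Il2rg also with E2 (1.04, adjusted p = 0.0311), and none with PMI-006. Tnfrsf12a lay at 282%, 120% and 64.7% with PMI-006, at 101%, 189% and 326% with JM6 and at 152% on both E2 arrays, and Tnfrsf1a between 27.5% and 51.5% over the 8 drug-treated arrays. The Tnfrsf12a level was at or above the lowest TBI array, 35.9%, on all of them. Under quantile normalization the drug minus TBI differences were 0.82, 0.44 and 0.53 for Tnfrsf12a, -0.21, -0.43 and -0.38 for Tnfrsf1a, 1.01, 0.17 and 0.37 for Il1rn, 0.06, -0.24 and 0.11 for Il2rg, and -0.81, -0.88 and -1.0 for Tnfrsf26 (JM6, PMI-006 and E2), none of which passed the test. Il1rn (14% to 82.0%) and Il1r2 (5.21% to 66.7%) spread widely over the drug-treated arrays, with JM6 3 the highest array of each. Monocyte and macrophage markers summed to 862% to 1463% on the drug-treated arrays, against 144% to 627% in TBI rats. Of these 7 markers, 6, 2 and 4 were called higher with JM6, PMI-006 and E2, where 69.9%, 56.7% and 70.2% of all probes were. Under quantile normalization 1, 0 and 0 were called higher, where 13.9%, 9.96% and 10.4% of all probes were. The summed T cell, B cell, NK cell, astrocyte, neuron and endothelial markers were also higher on every drug-treated array than on any TBI array. These sums are under the methods' scaling, where the median log2 difference over all probes was 0.99, 0.79 and 1.08. Under quantile normalization no neuron or NK cell marker was called. At most 1 marker of each other list was called higher in a drug group, and 1 T cell marker was called lower with PMI-006. The part of these cell types in the receptor values was not tested.

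**Figure D5:**
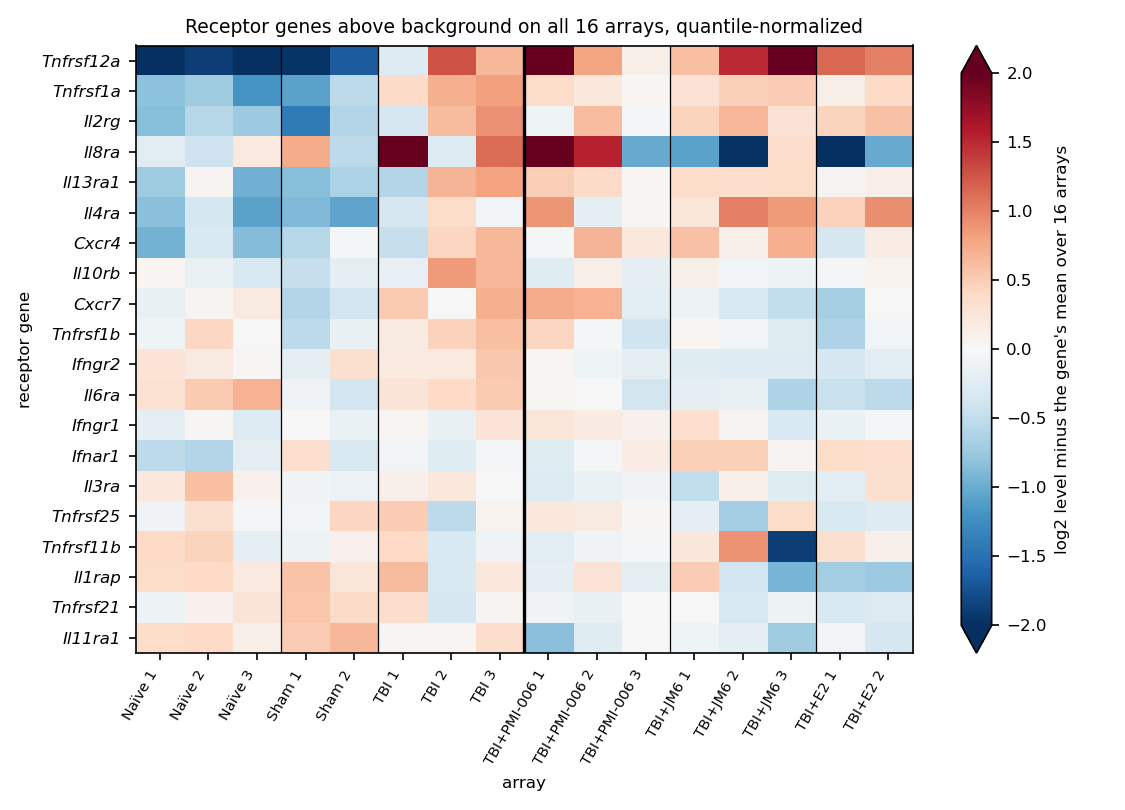
Quantile-normalized log2 level of 20 receptor genes above background on all 16 arrays, each centred on its mean over the arrays (colour, log2 units, drawn at the limit beyond -2 and 2; rows are genes, columns arrays by group). Tnfrsf12a and Tnfrsf1a are low on the 5 Naïve and Sham arrays and higher on the 11 arrays of injured rats.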

How the data were processed

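Total hippocampal RNA was amplified, labelled with Cy3 and hybridised to Agilent rat arrays, and the deposited scanner files were made by the authors with Agilent Feature Extraction 9.5.3.1 (probe positions in rn4). Which amplification kit was used for each rat is not given in the sources used here. The processed signal intensity in the deposited files was averaged over the spots of a probe without outlier flags (Il17ra had none on JM6 2), divided by the 75th percentile of the array's probes well above background, as in the study's methods, and taken to log2. The deposited matrix of the authors' normalized ratios served as an alternative. It did not reproduce this scaling. Its calls for the drug groups against TBI were fewer, and most were those of quantile normalization. Of 30367 probes, 22827 were well above background on all arrays of some group and were tested with limma 3.58.1 in R 4.3.3, over all 16 arrays, with Benjamini-Hochberg adjustment over all tested probes. Each array was taken as 1 rat, and p-values measure the spread between these arrays. The study's methods give 3 rats in each group, whereas the Sham and E2 groups have 2 arrays each here. On simulated data for 22827 probes, 72% of 4-fold and 35% of 2-fold changes were recovered for TBI against Sham and 80% and 31% for TBI against Naïve rats. The simulated noise was independent between probes and held no slide, session or background effect, so these shares do not cover such effects. Replicate numbers did not pair the arrays (median correlation of deviations -0.01). Members were named in full where called among Naïve, Sham and TBI rats, with the 5 largest called differences of each drug group from TBI. The members and gene lists were chosen with earlier results of these data known. RefSeq (GRCr8) supplied promoters for 52 of 72 members. One member enters the counts and is not reported here by name.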

Additional observations from a re-analysis of the deposited data

How the results depend on the processing

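The precision is limited by 2 or 3 arrays a group and, for 51 of 72 members, by signal that was not well above background on every array. The numbers of members called depended on the processing, and the cause was not tested. In TBI against Sham rats (5 called) the number was 0 with normexp background correction, with the compared groups alone, with slide as a fixed block and by the methods' t-test after adjustment, 2 without a filter on dim probes, 3 over the members above background on all 16 arrays, and 8 when all probes set the percentile used for scaling. It ran from 1 to 9 with 1 array left out. In TBI against Naïve rats (8 called) it was 0 with normexp, with the groups alone and by the adjusted t-test, 1 with slide as a fixed block, 4 without the filter and over the members on all 16 arrays, 5 in the authors' matrix, and 2 to 13 with 1 array left out. In Sham against Naïve rats (3 called) it was 0 with normexp and by the adjusted t-test, 1 over the members on all 16 arrays, by the unadjusted t-test, with the groups alone and with slide as a fixed block, and 1 to 3 with 1 array left out (1 without Naïve 2). It was 0 higher and 4 lower when all probes set the percentile. Among the named genes called in comparisons of Naïve, Sham and TBI rats, the direction of Il1rapl1 in TBI against Naïve rats turned, to 0.0811 with normexp.

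Between drug groups (0 called) the unadjusted t-test gave 3 members for JM6 against PMI-006, 2 for JM6 against E2 and 7 for PMI-006 against E2. Slide as a random block gave 2 for PMI-006 against E2 (Il1rapl2 among them), and leaving out an array 0 to 1, Ccr6 without PMI-006 replicate 2. For JM6 against TBI (39 called) the number was 9 with normexp, 6 with quantile normalization, 20 (18 higher and 2 lower) when all probes set the percentile, 14 over the members on all 16 arrays, 6 in the authors' matrix and 22 by the adjusted t-test. For PMI-006 against TBI (24 called) these were 0, 6, 13, 6, 6 and 15. For E2 against TBI (31 called) they were 1 with normexp, 6 with quantile normalization, 8 over the members on all 16 arrays, 5 in the authors' matrix and 17 by the adjusted t-test. Slide as a fixed block could not be fitted for these 3 comparisons. With the replicate number as a block the numbers called were 4, 8, 3, 0, 0, 0, 38, 26 and 31, and of the named genes Tnfrsf12a (TBI against Sham), Il1r2 (TBI against Naïve) and Ifnar1 (Sham against Naïve) lost the call. The numbers share no animal, and arrays of 1 number within a session had a median correlation of deviations of -0.01.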
